A study of Mus musculus with 12 samples.

Results

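The genes described here were Ccnd1, E2f8, Mcm2, Mcm3, Mcm4, Mcm5, Mcm6, Mcm7, Mki67 and Top2a, 10 of the 19938 genes that the platform annotation names in the liver array data. A transcript cluster, the array's unit of measurement for a gene, was taken where its only symbol was the member's name. This gave 11 of the 21789 clusters with exactly 1 symbol, since Top2a had a pair of them, and the cluster with the highest mean over the 12 arrays stood for each gene. All 10 genes were measured on all arrays, and no filter on level was applied.

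Total liver RNA was measured on 12 Affymetrix mouse Gene Level 1.0 ST arrays in 4 groups of 3: hypothyroid L-NCoR∆ID mutants (replicates 5, 6 and 7), hypothyroid controls (replicates 17, 18 and 20), euthyroid L-NCoR∆ID mutants (replicates 2, 3 and 4) and euthyroid controls (replicates 13, 14 and 15). The name L-NCoR∆ID is known to stand for a liver-specific nuclear receptor corepressor (NCoR) that lacks its receptor interaction domains. The sources used here do not say how the mice were made hypothyroid, nor do they give sex, age, strain, the alleles of the controls or the promoter that drove any recombinase. The labels number the samples without saying that each is a separate animal, and each array is called a mouse below. The design asks how the mutation acts in each thyroid state and how thyroid state acts in each genotype.

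Cyclin D1, the product of Ccnd1, binds the kinases CDK4 and CDK6 and carries growth signals to the retinoblastoma proteins, which hold E2F transcription factors in check. E2F targets include the MCM genes, whose products form the ring that is loaded at replication origins before S phase and then unwinds DNA as the core of the replicative helicase. Thyroid hormone is known as a mitogen for rodent hepatocytes, and the unliganded hormone receptor recruits NCoR to repress target genes.

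Values are RMA signals on the log2 scale, so a difference of 1 is a doubling of the signal, and each level below is a log2 level of 1 array. Array medians over all clusters lay between 4.16 and 4.32, and the SD of log2 values over an array was 2.32 to 2.35 in hypothyroid mutants, 2.29 to 2.30 in hypothyroid controls, 2.26 to 2.31 in euthyroid mutants and 2.22 to 2.28 in euthyroid controls. Hypothyroid mutant replicate 7 and euthyroid control replicate 14 stood apart from the rest, with the highest level of 12 arrays for 16.3% and 20.4% of all genes, against 4.52% to 8.76% for the other arrays. Mki67 and Top2a lay below the array median on all 12 arrays, Mcm3 on 10, E2f8 on 7, Mcm4 on 5 and Mcm6 on 3. All 10 hepatocyte markers, such as Alb and Apoa1, lay above the median on every array, with levels of 9.60 to 13.7. Tests were limma fits over all 21789 clusters, and a gene was called at an adjusted p under 0.05. In both averaged comparisons, leaving out euthyroid control replicate 13 gave more called clusters than leaving out any other single array. It gave 3579 against 1317 with all arrays for hypothyroid minus euthyroid, and 1866 against 248 for mutant minus control.

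Ccnd1 and E2f8 fell in hypothyroid livers of both genotypes, and no other member was called. Ccnd1 was 4.53-fold lower and E2f8 was 2.39-fold lower in the 6 hypothyroid mice than in the 6 euthyroid mice. In hypothyroid mutants Ccnd1 stood at 5.72, 6.35 and 5.24, against 7.57, 8.43 and 8.38 in euthyroid mutants. In hypothyroid controls it stood at 5.54, 5.5 and 5.72, against 7.28, 7.44 and 8.04 in euthyroid controls. All 6 hypothyroid mice lay below all 6 euthyroid mice, as for 1.13% of all clusters, with a gap between the highest hypothyroid mutant (replicate 6) and the lowest euthyroid control (replicate 13).

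The log2 difference of Ccnd1, hypothyroid minus euthyroid, was -2.36 ± 0.275 (SE, n = 3 each, adjusted p = 0.000647, limma) in mutants and -2.0 ± 0.275 (SE, n = 3 each, adjusted p = 0.00128, limma) in controls. These are a 5.13-fold and a 4.0-fold lower signal. Averaged over genotypes it was -2.18 ± 0.194 (95% interval -2.59 to -1.76, adjusted p = 1.2e-05, limma), rank 13 among the falls of all clusters ordered by the moderated statistic. The mean level was 5.77 ± 0.552 in hypothyroid mutants, 5.59 ± 0.118 in hypothyroid controls, 8.13 ± 0.488 in euthyroid mutants and 7.59 ± 0.399 in euthyroid controls (SD, n = 3 each), so hypothyroid controls were lowest and euthyroid mutants highest. Neighbours in this order that shared a thyroid state overlapped, and the step between the states did not. In bulk liver RNA, fewer cells of a type and less RNA per cell cannot be told apart.

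E2f8 encodes an atypical E2F that represses E2F targets and is known for its part in the polyploidy of hepatocytes. It stood at 3.68, 3.98 and 3.21 in hypothyroid mutants, against 4.8, 4.76 and 5.43 in euthyroid mutants. In controls it stood at 3.31, 3.44 and 3.36 in the hypothyroid state, against 4.67, 4.25 and 4.62 in the euthyroid state. The hypothyroid and euthyroid groups did not overlap, and all 6 hypothyroid levels lay below the median of their arrays. The log2 difference, hypothyroid minus euthyroid, was -1.37 ± 0.206 (SE, n = 3 each, 2.59-fold lower, adjusted p = 0.004, limma) in mutants and -1.14 ± 0.206 (SE, n = 3 each, 2.21-fold lower, adjusted p = 0.0119, limma) in controls. Averaged over genotypes it was -1.26 ± 0.146 (95% interval -1.57 to -0.95, adjusted p = 0.000125, limma). The call in controls was lost without euthyroid control replicate 15 (adjusted p = 0.0548), hypothyroid control replicate 17 (adjusted p = 0.0611) or hypothyroid control replicate 20 (adjusted p = 0.0514), all limma values, while the log2 difference lay between -1.27 and -1.07 in every such fit.

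**Figure D1:**
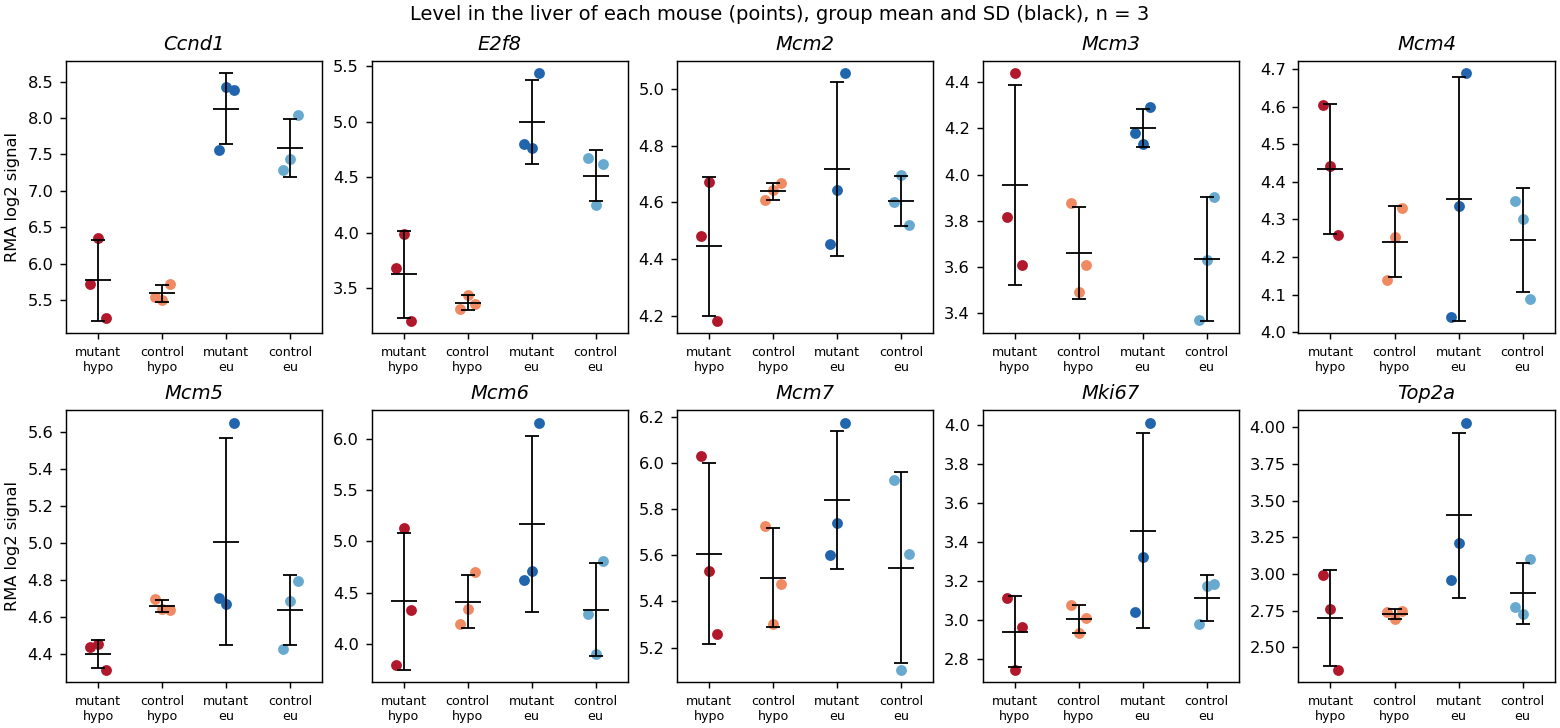
Log2 RMA signal of the 10 genes, 1 panel each; points are mice, and the bar is the mean ± SD (n = 3) of hypothyroid mutants, hypothyroid controls, euthyroid mutants and euthyroid controls. Ccnd1 and E2f8 separate by thyroid state, with hypothyroid means of 5.77 and 5.59 against euthyroid means of 8.13 and 7.59 for Ccnd1, while the MCM genes, Mki67 and Top2a overlap between most groups.

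The other 8 members did not pass the test in any comparison of thyroid states. In mutants 2 of the 10 members were called lower, against 0.454% of all clusters, and in controls 2 were called lower, against 0.473%. Averaged over genotypes 2 were called lower, against 1.87%, also without both arrays that stood apart. In all 3 comparisons they were Ccnd1 and E2f8. Averaged over genotypes, the differences of the other 8 ran from -0.42 for Top2a (lowest adjusted p among the 8, 0.131, limma) to 0.04, with a median of -0.22, against a median of -0.02 over all clusters.

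The values of these 8 are given side by side for the genotypes. In mutants their hypothyroid minus euthyroid differences ran from -0.75 for Mcm6 to 0.08 for Mcm4, with a median of -0.40. In controls they ran from -0.14 for Top2a to 0.08 for Mcm6, with a median of 0.01, and the 95% intervals reached from -0.73 to 0.88, both bounds being those of Mcm6. In mutants 5 of the 10 members had an unadjusted p under 0.05, against 15.8% of all clusters; in controls 2 had, against 13% of all clusters. The count in mutants was 2 without euthyroid mutant replicate 4 and 2 with array SD as a covariate. It was 7 without hypothyroid mutant replicate 6, 5 with quantile normalization and 4 without both arrays that stood apart. The share of all clusters was not counted in these fits. In both genotypes the hypothyroid group lay wholly below the euthyroid group for Ccnd1 and E2f8, and in mutants also for Mcm5, that is 3 of 10 against 11.1% of all clusters in mutants and 2 of 10 against 7.88% in controls.

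The difference of these differences was tested as the interaction of genotype and thyroid state. With limma 0 of 10 members and 0% of all clusters were called, and 1 member (Mcm5) against 2.75% of clusters had an unadjusted p under 0.05. The interaction of Ccnd1 was -0.36 ± 0.388 (SE, 95% interval -1.19 to 0.47), that of E2f8 was -0.23 ± 0.292 (SE, 95% interval -0.85 to 0.39), and that of Mcm5 was -0.63 ± 0.293 (SE, adjusted p = 1, limma).

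**Figure D2:**
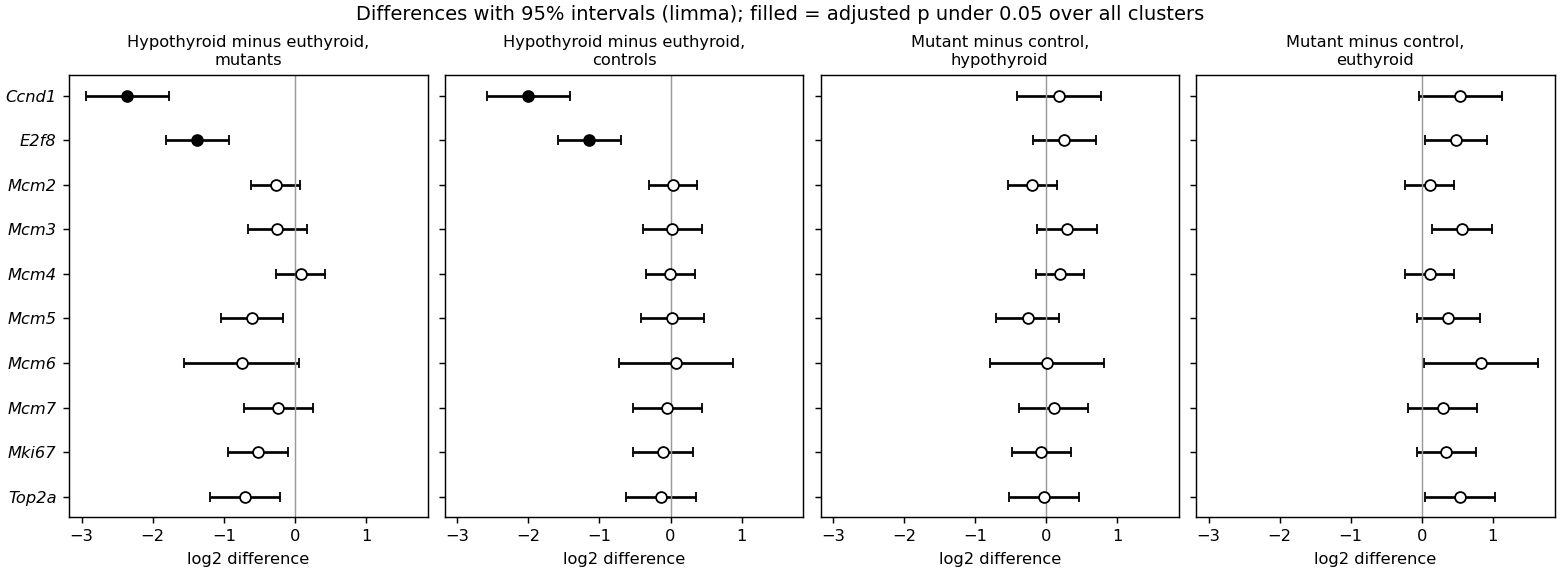
Log2 differences of the 10 genes with 95% intervals (limma) in 4 comparisons: hypothyroid minus euthyroid in mutants and in controls, and mutant minus control in hypothyroid and in euthyroid mice; filled points are called at adjusted p under 0.05. Ccnd1 (-2.36 and -2.0) and E2f8 (-1.37 and -1.14) are the filled points, and in euthyroid mice all 10 points of mutant minus control lie above 0 with none filled.

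The minichromosome maintenance genes among the members, Mcm2 to Mcm7, showed no called change in either mutant comparison. In euthyroid mice all of Mcm2 to Mcm7 were on the higher side in mutants. The promoters of Mcm5 and Mcm6, which hold more than 1 E2F word each, are shown with that of E2f8, called lower with thyroid state, and of Top2a, the topoisomerase that unlinks daughter chromosomes, because together they span the E2F targets and the late cell cycle genes among the members. Each line is the 250 bases before the RefSeq start (GRCm38.p6), 5′ to 3′ on the strand of the gene: E2f8 at chr7:48881597-48881846 on the minus strand, Mcm5 at chr8:75109259-75109508 on the plus strand, Mcm6 at chr1:128359706-128359955 on the minus strand and Top2a at chr11:99024190-99024439 on the minus strand. Capitals mark matches on either strand to the E2F words TTTCCCGC, TTTGGCGC, TTTCGCGC and TTTGCCGC, to CCAAT, to TTTGAA and to AGGTCA, and adjoining words may overlap.
E2f8: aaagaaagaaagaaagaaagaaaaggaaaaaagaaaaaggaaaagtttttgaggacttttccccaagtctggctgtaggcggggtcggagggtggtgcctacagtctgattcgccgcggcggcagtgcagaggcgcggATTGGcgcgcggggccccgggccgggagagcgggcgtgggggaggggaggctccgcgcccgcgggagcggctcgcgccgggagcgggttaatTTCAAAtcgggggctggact
Mcm5: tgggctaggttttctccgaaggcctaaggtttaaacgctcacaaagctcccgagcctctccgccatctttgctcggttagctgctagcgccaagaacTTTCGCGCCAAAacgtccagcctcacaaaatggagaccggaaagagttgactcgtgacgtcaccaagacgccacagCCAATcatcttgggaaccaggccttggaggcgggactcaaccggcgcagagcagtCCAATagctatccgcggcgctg
Mcm6: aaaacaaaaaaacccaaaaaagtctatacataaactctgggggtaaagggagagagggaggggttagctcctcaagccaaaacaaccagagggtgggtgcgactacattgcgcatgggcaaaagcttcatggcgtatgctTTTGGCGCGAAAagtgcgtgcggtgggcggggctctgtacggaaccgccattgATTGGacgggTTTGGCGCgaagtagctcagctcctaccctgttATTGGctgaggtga
Top2a: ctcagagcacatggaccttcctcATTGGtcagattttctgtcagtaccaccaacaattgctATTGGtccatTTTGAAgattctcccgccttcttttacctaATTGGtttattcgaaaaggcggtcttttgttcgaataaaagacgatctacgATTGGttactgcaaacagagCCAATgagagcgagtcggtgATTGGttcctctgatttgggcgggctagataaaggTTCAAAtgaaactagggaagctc
The E2F words stood in 3 of the 9 windows that RefSeq gave for 8 of the members (Mcm5, Mcm6 and 1 of the Mcm7 windows), against 1.86% of 32851 windows of the same length. CCAAT stood in 9 of 9 windows, against 33.8%, TTTGAA in 4 of 9, against 16%, and AGGTCA, a nuclear receptor half-site word, in 1 of 9 (Mcm2), against 14%. A match is a description of these letters and not of binding.

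Mcm6, a helicase subunit, stood at 3.80, 5.13 and 4.33 in hypothyroid mutants and 4.2, 4.34 and 4.70 in hypothyroid controls. It stood at 4.63, 4.71 and 6.16 in euthyroid mutants and 4.29, 3.91 and 4.81 in euthyroid controls. The level of 6.16, of euthyroid mutant replicate 4, was above every other mouse by a margin larger than the range of the controls. The other euthyroid mutants lay within the range of the controls, and hypothyroid mutants reached above and below it. The euthyroid log2 difference, mutant minus control, was 0.83 ± 0.377 (SE, 95% interval 0.03 to 1.64, adjusted p = 0.597, limma).

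Mcm5 stood at 4.44, 4.45 and 4.32 in hypothyroid mutants and 4.70, 4.64 and 4.64 in hypothyroid controls, and all 3 mutants lay below all 3 controls. In the euthyroid state it stood at 4.70, 4.67 and 5.65 in mutants and 4.43, 4.69 and 4.79 in controls, with replicate 4 again the highest. The mutant minus control difference was -0.26 in hypothyroid mice (adjusted p = 0.661, limma), where 1 of 10 members separated downward, against 10.2% of all clusters, and 0.37 in euthyroid mice (adjusted p = 0.662, limma).

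Mcm3 was the MCM gene whose groups separated in euthyroid mice, at 4.18, 4.13 and 4.29 in mutants and 3.37, 3.63 and 3.90 in controls. In hypothyroid mice it stood at 3.82, 4.44 and 3.61 in mutants and 3.88, 3.49 and 3.61 in controls, where the groups overlapped and replicate 6 of the mutants was highest. The euthyroid difference was 0.57 ± 0.195 (SE, 95% interval 0.15 to 0.98, adjusted p = 0.509, limma), and the difference averaged over thyroid states was 0.43 ± 0.138 (SE, adjusted p = 0.149, limma). Mcm2, Mcm4 and Mcm7 spanned 4.18 to 5.06, 4.04 to 4.69 and 5.11 to 6.18 over the 12 mice. Their euthyroid differences, mutant minus control, were 0.11, 0.11 and 0.29, none called.

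The proliferation genes Mki67, which encodes the Ki-67 protein of dividing cells, and Top2a stood low on the arrays. Top2a stood at 3.0, 2.76 and 2.35 in hypothyroid mutants, 2.74, 2.69 and 2.75 in hypothyroid controls, 2.96, 3.21 and 4.03 in euthyroid mutants and 2.77, 2.72 and 3.10 in euthyroid controls. Mki67 stood at 3.11, 2.74 and 2.96 in hypothyroid mutants, 3.08, 2.93 and 3.01 in hypothyroid controls, 3.04, 3.32 and 4.01 in euthyroid mutants and 2.98, 3.17 and 3.18 in euthyroid controls. For both genes 1 mouse, euthyroid mutant replicate 4, stood well above the rest. The euthyroid difference, mutant minus control, was 0.53 (adjusted p = 0.586, limma) for Top2a and 0.35 (adjusted p = 0.665, limma) for Mki67. The second cluster of Top2a had levels of 1.41 to 2.04 and was called in none of the 7 comparisons. Hypothyroid minus euthyroid, it was at 0.28 in mutants and 0.12 in controls, opposite in sign to the main cluster (-0.70 and -0.14). Another 2 clusters that named Top2a among several symbols were not used.

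In euthyroid mice the mutant minus control difference was above 0 for 10 of 10 members, against 50% of all clusters, with a median of 0.43 against 0.00 over all clusters. None was called with limma, against 0.129% of all clusters, and 4 of 10 had an unadjusted p under 0.05, against 8.13% of clusters. That count was 1 without both arrays that stood apart, and 5 with array SD as a covariate or without hypothyroid mutant replicate 6. The share of all clusters was not counted in those fits. E2f8 (difference 0.48) and Mcm3 separated upward, that is 2 of 10 members against 5.05% of all clusters. For Ccnd1 the difference was 0.54 ± 0.275 (SE, 95% interval -0.05 to 1.13). In hypothyroid mice the differences lay between -0.26 for Mcm5 and 0.29 for Mcm3, 6 above 0 (against 46.2% of all clusters) and 4 below. With limma 0 were called, against 0.262% of all clusters, and 0 had an unadjusted p under 0.05, against 10.4%. Without both arrays that stood apart 2 had, and the median over the members was 0.21, against 0.06 with all arrays. Averaged over thyroid states 0 of 10 were called, against 1.14%, and 2 of 10 had an unadjusted p under 0.05, against 16.7% of clusters.

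**Figure D3:**
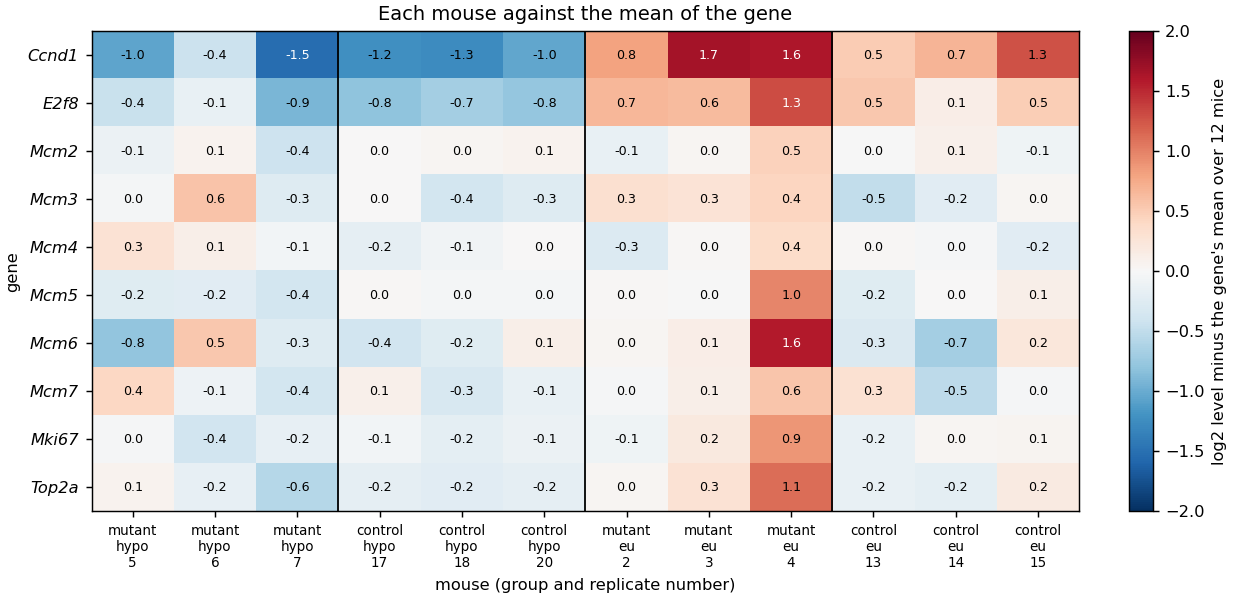
Log2 level of each gene in each mouse minus the gene's mean over the 12 mice; rows are the 10 genes and columns the mice of each group. Ccnd1 (-1.52 to 1.67) changes sign between thyroid states, and the column of euthyroid mutant replicate 4 is high for nearly every gene.

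Among the euthyroid mutants a single mouse was high for most members. Euthyroid mutant replicate 4 held the highest level of all 12 mice for 8 of 10 members (80%), against 8.76% of all 19938 genes. The exceptions were Ccnd1, where replicate 3 of the same group was highest, and Mcm3, where hypothyroid mutant replicate 6 was. Relative to the mean of the other 2 mice of its group, replicate 4 was higher by 1.49 for Mcm6, 0.97 for Mcm5, 0.95 for Top2a, 0.84 for Mki67 and 0.65 for E2f8. The median over the members was 0.58, against 0.01 over all genes. For 24 of 35 mitosis genes (68.6%), 12 of 36 replication fork genes (33.3%), 5 of 9 deoxynucleotide synthesis genes (55.6%) and 1 of 12 licensing genes (8.33%), replicate 4 was also the highest of 12 mice. In the remaining lists it was so for 1 of 11 cyclins and kinases (9.09%), 2 of 12 E2F and retinoblastoma genes (16.7%) and 0 of 10 kinase inhibitor genes.

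**Figure D4:**
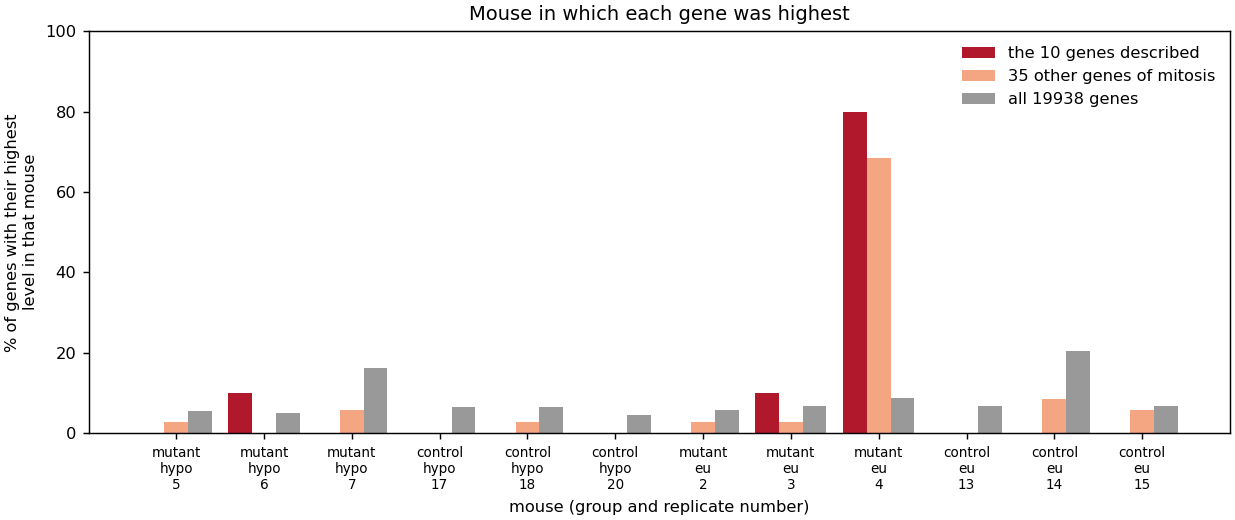
Percent of genes whose highest level of the 12 mice lay in each mouse, for the 10 members, the 35 mitosis genes and all 19938 genes. Euthyroid mutant replicate 4 reaches 80%, 68.6% and 8.76%.

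Without replicate 4 the euthyroid difference, mutant minus control, had a median of 0.17 over the members, was above 0 for 8 and below 0 for 2, and 1 had an unadjusted p under 0.05. The differences became 0.34 for Mcm6, 0.05 for Mcm5, 0.07 for Mki67, 0.22 for Top2a and 0.27 for E2f8, and the range was -0.06 to 0.52. In mutants, the hypothyroid minus euthyroid median became -0.25, against -0.56 with all mice, and Ccnd1 and E2f8 were still called. Both comparisons use the euthyroid mutant group, so they are not separate evidence. Of the Kupffer cell and macrophage markers 0 of 12 were highest of the 12 mice in replicate 4, against 8.76% of all genes. All 12 were highest in replicate 3 of the same group, against 6.89%. Of the lymphocyte markers 2 of 11 (18.2%) were highest of the 12 mice in replicate 4. Within its group, replicate 4 was highest for 7 of these 11 (63.6%), against 33.3% of all genes.

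Markers of liver macrophages differed between the groups as well. Their mean level per mouse ran from 5.37 to 6.22 in hypothyroid mutants, 5.35 to 5.53 in hypothyroid controls, 6.19 to 7.25 in euthyroid mutants and 5.86 to 5.98 in euthyroid controls, and 10 of 12 lay above the array median on every array. Hypothyroid minus euthyroid averaged over genotypes, 4 of 12 were called lower (Clec4f, Lyz2, C1qc and Cd5l), against 1.87% of all clusters, with a median of -0.65. That count was 7 with quantile normalization or without hypothyroid mutant replicate 6, and 1 without both arrays that stood apart. Over all clusters, 1032 were called in either direction with quantile normalization, 882 without replicate 6 and 730 without both arrays. The main fit called 1317. Mutant minus control in euthyroid mice, 12 of 12 macrophage markers were above 0, against 50% of all clusters, with a median of 0.59 and 0 called, against 0.129%. Averaged over thyroid states, mutant minus control, Adgre1 was called higher (0.66 ± 0.145, SE, adjusted p = 0.0427, limma). Tfrc, the transferrin receptor, of the erythroid list, was called higher in mutants (0.69, adjusted p = 0.0408, limma) and in hypothyroid mice (0.71, adjusted p = 0.0133, limma), each averaged over the other factor. In each comparison it was the only 1 of 7 measured erythroid genes called, against 1.14% and 6.04% of all clusters. Only 3 of the 7 were above 0 in each, with medians of -0.01 and -0.09. In hypothyroid mutants, replicate 6 was highest of its group for 6 of 10 members and for all 12 macrophage markers, against 28.1% of all genes. It was also highest of its group for 9 of 12 endothelial and stellate cell markers (75%). Lymphocyte markers were low (7 of 11 below the array median on all arrays), as were 3 of 7 cholangiocyte markers. Of the hepatocyte markers 1 of 10, Ttr, was called higher in hypothyroid mice averaged over genotypes (0.32, adjusted p = 0.0259, limma), against 6.04% of all clusters. The part of these markers in the members' results was not tested.

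Other genes of the pathway were counted in 7 lists, of which 125 of 130 genes were measured. In hypothyroid minus euthyroid mutants 1 was called, Gadd45b (higher), 0.8% against 1.11% of all clusters. In controls 0 were called, also against 1.11% of all clusters. Averaged over genotypes 3 were called higher and 0 lower, 2.4% against 6.04%. They were Rbl2, a pocket protein of the retinoblastoma family, with 0.52 ± 0.126 (SE, adjusted p = 0.0257, limma), Gadd45g, a growth arrest and DNA damage protein, with 1.41 ± 0.361 (SE, adjusted p = 0.0332, limma), and Gadd45b, of the same family, with 1.12 ± 0.18 (SE, adjusted p = 0.00196, limma). Rbl2 stood at 6.89, 6.92 and 7.42 in hypothyroid mutants and 7.0, 7.5 and 7.19 in hypothyroid controls, against 6.66, 6.76 and 6.65 in euthyroid mutants and 6.74, 6.25 and 6.71 in euthyroid controls, with no overlap between thyroid states, as for 2.62% of all clusters. Its call was lost without euthyroid mutant replicate 2 or 4, hypothyroid mutant replicate 7, or hypothyroid control replicate 18 or 20 (adjusted p up to 0.0687, limma). That of Gadd45g was lost without euthyroid mutant replicate 2 or 4, euthyroid control replicate 15, hypothyroid mutant replicate 6 or 7, or hypothyroid control replicate 17 or 18 (adjusted p up to 0.0854, limma). Gadd45b stayed called without any single array in the averaged comparison, and in mutants its call was lost without euthyroid mutant replicate 2 or hypothyroid mutant replicate 6 or 7 (adjusted p up to 0.111, limma).

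Of the mitosis genes, 0 of 35 were called in hypothyroid minus euthyroid averaged over genotypes, against 6.04% of all clusters, and 11 had an unadjusted p under 0.05 (limma), against 24.7%. Their median was -0.15, against -0.02 over all clusters. With array SD as a covariate 1 of 35 had an unadjusted p under 0.05 and the median was -0.08. That count was 7 without euthyroid mutant replicate 4 and 6 without both arrays that stood apart. In the fit without both arrays, with quantile normalization and without hypothyroid mutant replicate 6, 1 mitosis gene was called lower. Over all clusters, 181 were called with array SD, 711 without replicate 4 and 730 without both arrays, against 1317 in the main fit. Array SD differed between thyroid states, so the covariate and thyroid state cannot be fully told apart. Cenpa, the centromere histone variant, stood at -0.43 (adjusted p = 0.0549, limma), and Aurkb, a mitotic kinase, at -0.36 (adjusted p = 0.053, limma). Of the licensing genes 0 of 12 were called, against 6.04% of all clusters, with Cdc6, a loader of the MCM ring, at -0.38 (adjusted p = 0.0564, limma) and Orc5, an origin recognition subunit, at 0.39 (adjusted p = 0.0751, limma). All but Cdc6, that is 11 of the 12 licensing genes, were above 0, with a median of 0.17 against -0.02 over all clusters. Cdk4 and Cdk6, the kinase partners of cyclin D1, were at 0.28 and 0.36 (adjusted p = 0.0728 and 0.0802, limma), opposite in sign to Ccnd1 and not called.

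For mutant minus control, 0 of 125 pathway genes were called with limma in euthyroid mice, against 0.129% of all clusters, and 17 had an unadjusted p under 0.05, against 8.13%. In hypothyroid mice 0 were called, against 0.262%, and 12 had an unadjusted p under 0.05, against 10.4%. Averaged over thyroid states 3 were called higher and 1 lower, 3.2% against 1.14% of all clusters. Myc, a growth-driving transcription factor, was higher by 0.65 ± 0.137 (SE, adjusted p = 0.0336, limma), and all 6 mutants lay above all 6 controls, which 0.643% of clusters did. Myc stood at 5.39, 5.76 and 5.05 in hypothyroid mutants against 4.11, 4.83 and 4.32 in hypothyroid controls, and at 5.01, 4.95 and 5.22 in euthyroid mutants against 4.75, 4.83 and 4.64 in euthyroid controls. Its call held without euthyroid control replicate 13, hypothyroid mutant replicate 7 or hypothyroid control replicate 18, and was lost without any other single array (adjusted p up to 0.106, limma). In the fit without euthyroid control replicate 13, 1866 clusters were called, against 248 with all arrays.

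Mcm10, a replication fork factor, was lower in mutants by 0.54 on the log2 scale (difference -0.54 ± 0.116, SE, adjusted p = 0.0359, limma). It stood at 5.0, 4.96 and 5.16 in hypothyroid mutants against 5.82, 5.84 and 5.80 in hypothyroid controls, and at 5.19, 4.97 and 5.06 in euthyroid mutants against 4.97, 5.43 and 5.75 in euthyroid controls. The hypothyroid groups separated and the euthyroid groups overlapped, and of the 12 fits without 1 array the call was kept in that without euthyroid control replicate 13 alone (adjusted p otherwise up to 0.097, limma). Nek2, a centrosome kinase, was higher by 0.60 ± 0.122 (SE, adjusted p = 0.0268, limma), with the call lost without euthyroid mutant replicate 4 (adjusted p = 0.0704, limma), euthyroid control replicate 15, hypothyroid mutant replicate 5 or 6, or hypothyroid control replicate 17 or 18 (adjusted p up to 0.0825, limma). Gadd45b was higher by 0.83 ± 0.18 (SE, adjusted p = 0.0389, limma), and of the 12 fits without 1 array the call was kept in those without euthyroid mutant replicate 2, euthyroid control replicate 13 or hypothyroid control replicate 20 (adjusted p otherwise up to 0.124, limma).

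**Figure D5:**
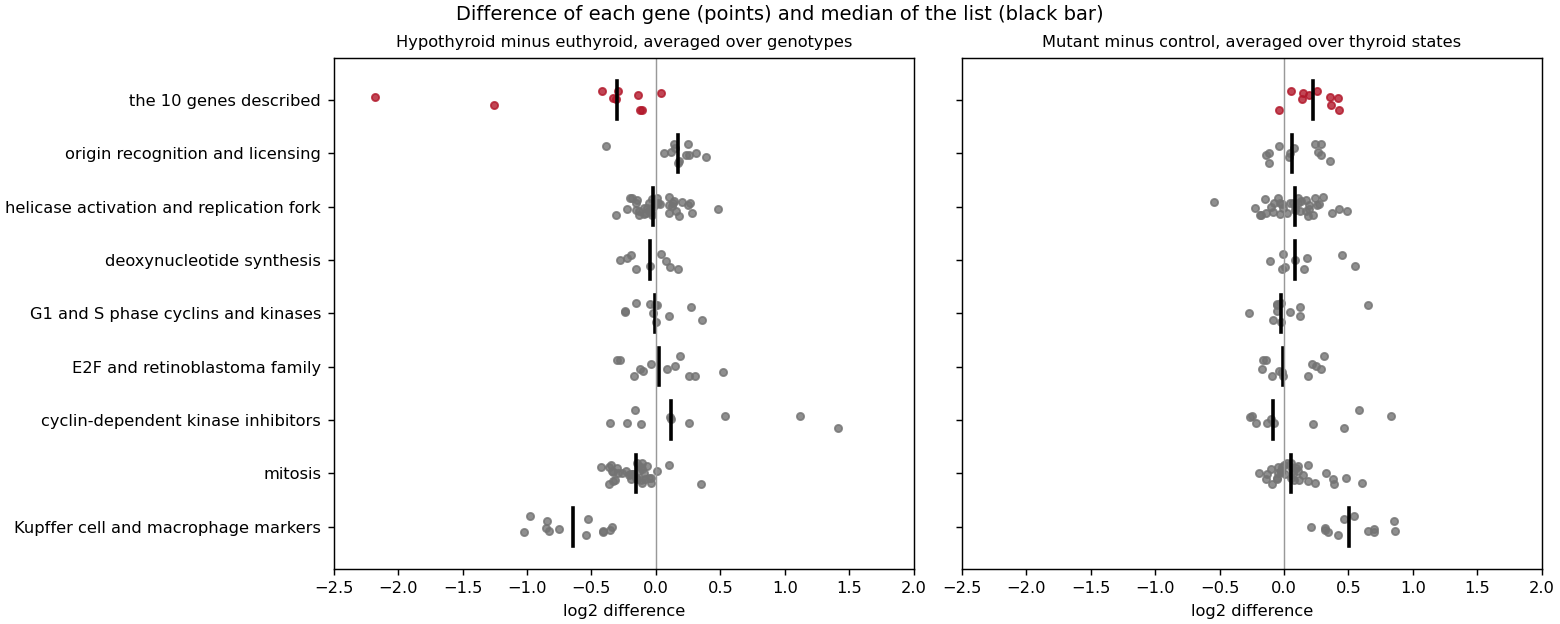
Log2 differences of single genes in the members, the 7 pathway lists and the Kupffer cell and macrophage markers, hypothyroid minus euthyroid averaged over genotypes and mutant minus control averaged over thyroid states. Ccnd1 (-2.18) and E2f8 (-1.26) are the lowest points of the thyroid comparison, followed by Lyz2 (-1.02) of the macrophage markers. The mitosis genes have a median of -0.15 there.

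Genes most like the members were searched over 9896 genes with a mean level above the median. The Pearson correlation over 12 mice to Ccnd1 was 0.97 for Dio1, the type 1 deiodinase, 0.96 for Gm21286, 0.96 for 9030619P08Rik, 0.95 for A1bg and 0.95 for Apof, and 0.95 for E2f8. Dio1 had the first rank among the falls of all clusters with thyroid state, with a difference of -5.85 ± 0.149 (SE) averaged over genotypes. As deviations from the group means, the correlations with Ccnd1 were 0.69 for Dio1, 0.68 for Gm21286, 0.26 for 9030619P08Rik, 0.84 for A1bg, 0.73 for Apof and 0.61 for E2f8. The correlation to the mean of Mcm2 to Mcm7 was 0.93 for H1f5, a linker histone, 0.91 for Zbtb5, 0.84 for Rcan2, 0.79 for Tmem98 and 0.78 for Wfdc11, and among the members 0.91 for Top2a, 0.77 for Mki67, 0.66 for E2f8 and 0.55 for Ccnd1. The points of these correlations share the group structure and the single high mouse.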

How the data were processed

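Per the submitters' processing notes, the authors made the deposited values with RMA, as log2 signals per transcript cluster of 35557; its version, options and any array batch are not stated there. Platform annotation gave 1 symbol to 21789 clusters (19938 genes), several to 1621 and none to 12147. No Ncor1 cluster was named, so the altered gene was not analysed here.

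All 12 arrays were fitted with 4 group means (limma 3.58.1, R 4.3.3; prior degrees of freedom 6.83, residual 8), with Benjamini-Hochberg adjustment within each of 7 comparisons. SE, 95% intervals and adjusted p-values are from limma. A check of the fit on simulated data covered hypothyroid minus euthyroid in controls alone. Labels do not say that arrays are separate animals, so p-values measure the spread between these arrays, whose number limits the precision. Members and lists were chosen with earlier results of these data known. All members were named. Of each list the rule selected up to 4 called members, otherwise the 2 most different, and not every uncalled gene so selected is named above. The 5 genes most like Ccnd1 and the MCM mean were also named. Promoters came from RefSeq. Alternatives were 2 normalizations, a level filter, every cluster, array SD as a covariate, trended moderation, the compared groups alone, and leaving arrays out.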

Additional observations from a re-analysis of the deposited data

How the results depend on the processing

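The count of called members stayed at 0 for mutant minus control in each thyroid state and averaged, and for the interaction, under every alternative run. For hypothyroid minus euthyroid it was 2 in each genotype and averaged. In controls it was 1 with clusters above the median level (where E2f8 was not tested), with every cluster and with array SD as a covariate, and leaving out single arrays gave 1 to 2. In mutants it was 1 with clusters above the median level and with array SD as a covariate, and averaged it was 1 with clusters above the median level. The cause of the other losses was not tested.

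Ccnd1 was called in all alternatives, with differences of -2.65 to -2.10 in mutants (adjusted p 0.000333 to 0.0308, limma) and -2.15 to -1.77 in controls (adjusted p 0.000693 to 0.0137, limma). E2f8 in mutants lost its call with array SD as a covariate (adjusted p = 0.137, limma), and in controls in 5 of 19 alternatives (adjusted p up to 0.0728, limma). With that covariate 36 clusters were called in mutants, against 241 in the main fit. Array SD was 2.29 to 2.35 in hypothyroid and 2.22 to 2.31 in euthyroid mice, so the covariate and thyroid state cannot be fully told apart. Of 1314 alternative values of the members, 53 changed sign, none of them a called value. Of the pathway calls averaged over thyroid states, Myc held in 8 of 19 alternatives, Nek2 in 10 of 18, Gadd45b in 6 of 19 and Mcm10 in 5 of 19. Averaged over genotypes, Rbl2 held in 11 of 19, Gadd45g in 8 of 19 and Gadd45b in 18 of 19. No paired analysis was possible because the groups share no replicate numbers. Signal was low for Mki67 and Top2a, below the array median on all 12 arrays, Mcm3, below it on 10, and E2f8, below it on 7. Between 2 groups their SE ran from 0.1955 for Mcm3 to 0.2302 for Top2a. Over all members it ran from 0.16 to 0.377, the highest being that of Mcm6. The part of low signal in these results was not tested.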
